A study of Mus musculus with 30 samples.

Results

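Polyamine synthesis and its control were followed through 9 genes in mouse liver. The genes were picked by symbol from the count tables, which list 14173 genes in all, and all 9 were found. Those of synthesis were *Odc1*, *Amd1*, *Srm* and *Sms*, those of catabolism were *Sat1* and *Smox*, and those that set the activity of ornithine decarboxylase were *Azin1*, *Oaz1* and *Oaz2*. Each passed the filter on low counts in every comparison.

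Liver RNA was sequenced from the 3′ end of transcripts in 30 male C57BL6/J mice, 6 from each of 5 diets that differed in protein source and in methionine and cysteine content. The Cas-20% diet held 20% casein with 0.57 gm% methionine and 0.41 gm% cysteine, and the Cas-5% diet 5% casein with 0.15 and 0.1 gm%. The Soy-20% diet held 20% soy protein with 0.22 gm% of each amino acid, the Soy-20% + SAA diet was the same with free methionine and cysteine added to 0.58 and 0.41 gm%, and the Soy-10% diet held 11.5% soy protein with 0.13 gm% of each. All mice were pre-fed a 20% casein or 20% soy diet, were moved to the Cas-5%, Soy-20% + SAA or Soy-10% diet or stayed on the Cas-20% or Soy-20% diet from 12 weeks of age, ate it for 12 weeks and were fasted for 4 h before death, at a labelled age of 6 months. According to the paper, the casein groups were pre-fed casein and the soy groups soy. Pre-feeding thus follows protein source in every comparison of casein with soy. Casein restriction lowered sulfur amino acids and total protein together, and these cannot be told apart here. Soy restriction against Soy-20% + SAA lowered both as well, while Soy-20% + SAA and Soy-20% differed in sulfur amino acids at the same protein content. Casein content fell from 20% to 5% and soy protein from 20% to 11.5%. Where casein and soy effects, or Cas-5% and Soy-10%, are compared, protein source and depth of protein restriction cannot be told apart. When the soy effect is taken against Soy-20%, the depth of sulfur amino acid restriction differs as well. Methionine then fell from 0.57 to 0.15 gm% with casein and from 0.22 to 0.13 gm% with soy. Each diet was fed to 10 mice, of which 6 livers were sequenced.

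Polyamines are small cations that bind nucleic acids and are needed for growth and translation. Ornithine decarboxylase (*Odc1*) makes putrescine from ornithine. S-adenosylmethionine decarboxylase (*Amd1*) makes the aminopropyl donor from S-adenosylmethionine, the activated form of methionine. Spermidine synthase (*Srm*) and spermine synthase (*Sms*) then add aminopropyl groups to putrescine and to spermidine. Spermidine/spermine acetyltransferase (*Sat1*) marks polyamines for export or oxidation, and spermine oxidase (*Smox*) turns spermine back into spermidine. The antizymes (*Oaz1*, *Oaz2*) bind ornithine decarboxylase, send it to the proteasome and lower polyamine uptake, while antizyme inhibitor (*Azin1*) binds the antizymes and frees the enzyme. Much of this control acts on translation and protein stability, which transcript counts do not show.

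The sequences below are shown because they carry that control or limit what the counts can resolve. Antizyme protein is made only when ribosomes shift frame at a stop codon, a step that polyamines favour. In the GENCODE M21 transcripts the 35 bases around this site were the same in *Oaz1* and *Oaz2* at 33 positions, and the capitals mark the shift site with its stop codon:
Oaz1: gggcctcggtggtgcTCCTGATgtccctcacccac
Oaz2: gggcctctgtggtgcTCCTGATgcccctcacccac
*Amd1* carries near its 5′ end an upstream open reading frame of 6 codons that is known to hold back translation when polyamines are high. It is shown with a few bases on either side, a stretch of 30 bases in the 5′ UTR at chr10:40302150-40302179 (minus strand, GRCm38.p6, sequence from RefSeq). The reading frame and its stop codon are in capitals:
Amd1 upstream frame: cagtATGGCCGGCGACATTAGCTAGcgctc
*Amd1* also has a near copy, *Amd2*, which holds the same upstream frame. Of 3204 aligned transcript bases 3190 were identical (99.6%). In the last 500 bases of *Amd1*, where 3′ reads fall, the pair differed at 4 positions, all within the last 6 bases. Capitals mark those 4 positions in the last 30 bases of the *Amd1* 3′ UTR and in the *Amd2* bases aligned to them:
Amd1: aaagtttgcttaattgtctagtaaCaTTGa
Amd2: aaagtttgcttaattgtctagtaaAaAAAa
Of the 451 stretches of 50 bases in the last 500 bases of *Amd1*, 445 (98.7%) also occurred in *Amd2*. The table had no row for *Amd2*, and how reads that match both genes were treated is not given in the sources used here, so values listed for *Amd1* cannot be told apart from *Amd2*.

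The other members could be told from their copies in greater part. In *Oaz1*, 165 of 451 such stretches (36.6%) were shared with the pseudogene *Oaz1-ps*, whose own row held between 0 and 8.577 normalized counts. *Odc1* shared 80 (17.7%) with processed pseudogenes and *Sat1* 11 (2.4%), and *Srm*, *Sms*, *Smox*, *Azin1* and *Oaz2* shared none. *Azin1* is overlapped on the other strand by the antisense gene *Gm49077*. In GRCm38 the members lie apart: *Odc1* on chromosome 12 (17544794 to 17551505), *Amd1* on chromosome 10 (40287458 to 40302188), *Srm* on chromosome 4 (148591503 to 148594993), *Sms* on chromosome X (157443855 to 157492287), *Sat1* on chromosome X (155213132 to 155216449), *Smox* on chromosome 2 (131491496 to 131525922), *Azin1* on chromosome 15 (38487427 to 38519266), *Oaz1* on chromosome 10 (80826656 to 80829290) and *Oaz2* on chromosome 9 (65668001 to 65690300).

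RefSeq promoters, from 250 bases before to 50 after a gene's start on GRCm38.p6, were listed for 7 of the 9 members (8 promoters), *Srm* and *Azin1* having no entry. The E-box CACGTG, a motif bound by MYC and its partners, occurred in the *Sms* promoter alone, against 7.15% of 32851 promoters. The element TGATGNAA, bound by ATF4, was in none of the 8, against 3.97% of all. CCAAT was found in *Oaz1* and *Sms* (37.4% of all promoters) and TATAAA in *Oaz1* (13.6%). Both strands were searched, and a match of letters is a description only.

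Reads per library ran from 7694015 to 14565542 (median 10803734). Hepatocyte markers (6 of 6 genes present) summed to between 7.698e+05 and 9.887e+05 normalized counts over the 30 libraries. Some marker sums moved with casein restriction. The median hepatocyte sum was 8.359e+05 on Cas-20% and 9.337e+05 on Cas-5%, with overlapping livers. Within it the mean of *Alb* rose from 4.671e+05 to 5.898e+05, while the means of the other hepatocyte genes were lower on Cas-5%. Among these *Cps1* went from 1.065e+04 to 3985. From Cas-20% to Cas-5%, the median sum of 4 stellate cell markers was 3533 and 4319, that of 4 sinusoidal endothelial markers 2320 and 2540, and that of 5 red blood cell genes 2.514e+04 and 1.656e+04, with overlapping livers in each. Of the endothelial markers *Pecam1* fell in mean from 309.2 to 264.4, and the others rose. The part of these marker shifts in the casein results was not tested. Libraries 3 to 6 of Soy-20% + SAA stood apart. In them the counts rose with the GC content of the transcript's last 200 bases, by 0.062 to 0.208 log2 units for each 10% of GC, against -0.063 to 0.026 in the 24 libraries of the other diets and -0.029 and -0.027 in Soy-20% + SAA libraries 1 and 2. The members' differences from that diet given below are printed with all of its libraries and also without these 4, when 2 livers of the diet remain. Soy-10% liver 4 held pancreatic acinar transcripts, such as *Cpa1* at 1036 normalized counts against at most 2.03 in the other 29 libraries. Without this liver the soy restriction values against Soy-20% + SAA were 0.52 for *Amd1* (edgeR adjusted p = 0.008) and 1.06 for *Sat1* (0.068) on the log2 scale. In whole liver, fewer cells of a type and less RNA per cell cannot be told apart.

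**Figure D1:**
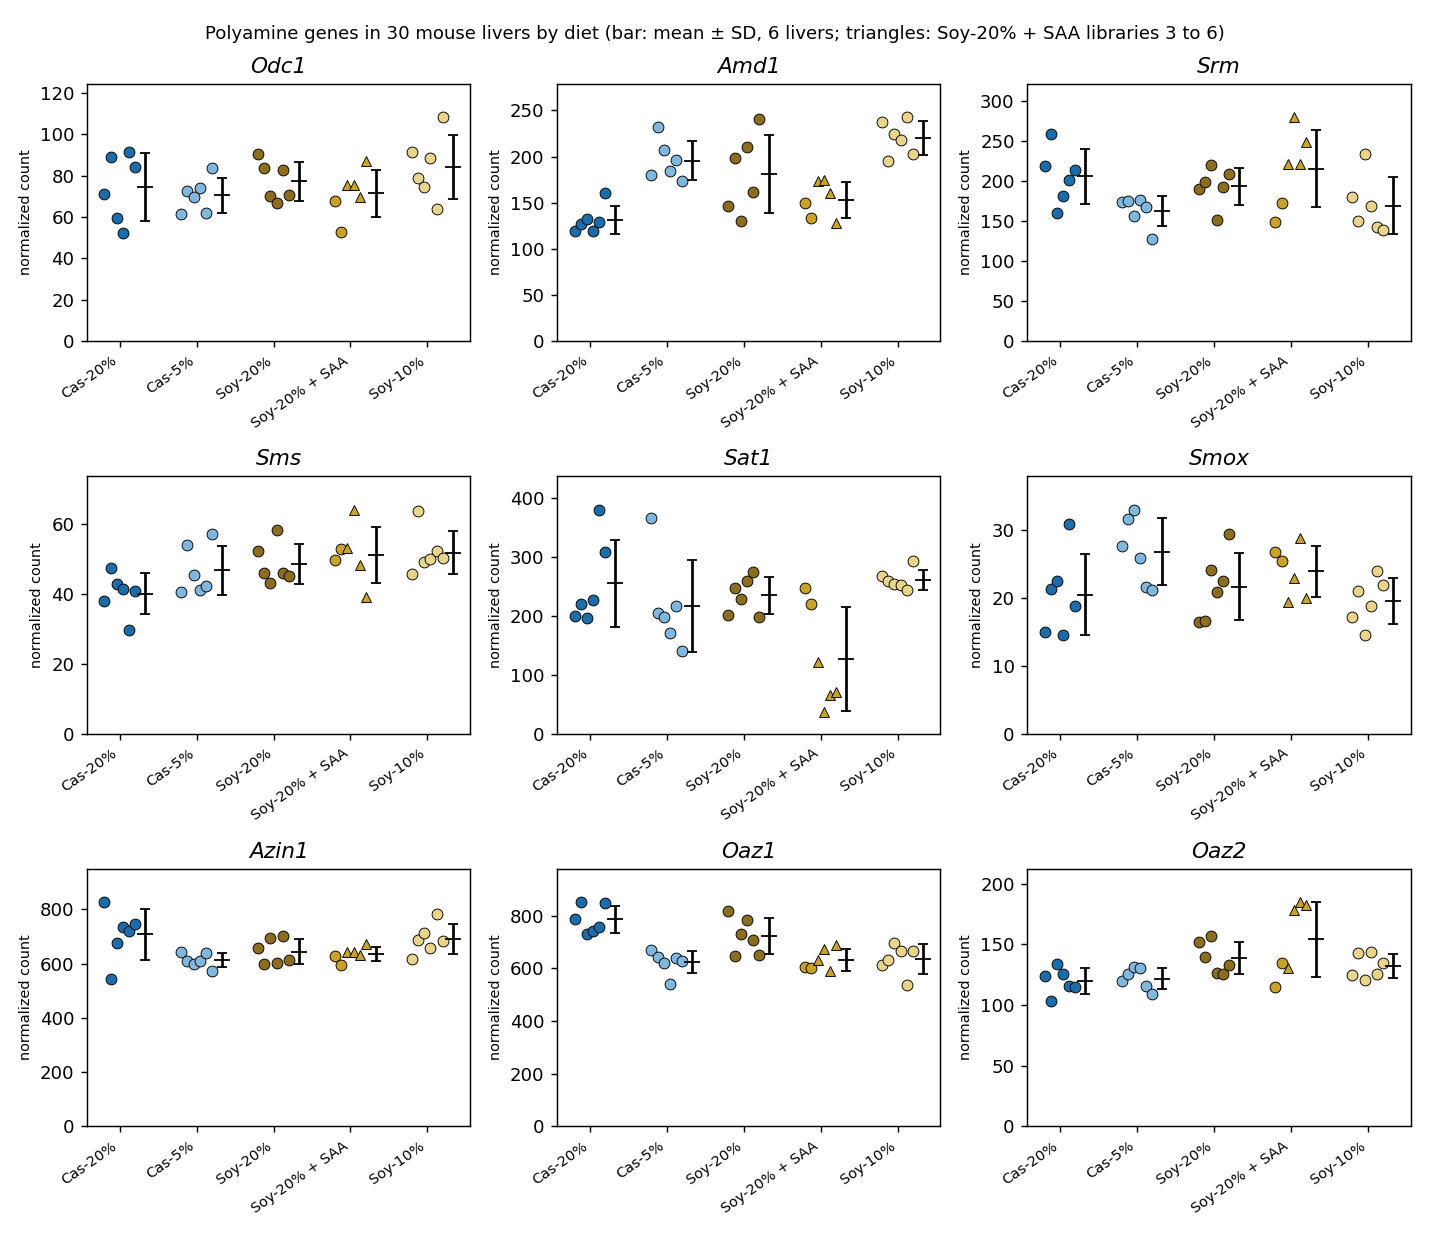
Normalized counts (y axis, from 0) of the 9 genes in each of 30 livers, grouped by diet on the x axis. Points are livers, bars are the mean ± SD of 6 livers, and triangles mark Soy-20% + SAA libraries 3 to 6. *Amd1* is higher in all Cas-5% livers than in all Cas-20% livers, *Oaz1* is lower, and *Sat1* is at 36.42 to 121 in the 4 triangles.

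Over all 5 diets, *Amd1* varied most clearly, followed by *Oaz1*. A quasi-likelihood F test for any difference among the diets, run with edgeR on the counts of 30 livers, called 4 of the 9 genes at an adjusted p of 0.05 or less. These were *Amd1* (adjusted p = 5e-05), *Oaz1* (0.00057), *Oaz2* (0.018) and *Sat1* (0.02). Across all 12561 genes tested 43.4% were called, so a count of 4 is near the background. Without the 4 Soy-20% + SAA libraries *Amd1* and *Oaz1* were still called and *Oaz2* (adjusted p = 0.2) and *Sat1* (0.67) were not. In no member did neighbouring diets in the order of the means separate without overlap.

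*Amd1* was higher on both restricted diets. Normalized counts ran from 119.1 to 160.6 (median 128) on Cas-20% and from 173.4 to 232 (median 190.5) on Cas-5%. On Soy-20% + SAA they ran from 128 to 174.4 (median 155.2), on Soy-20% from 130.6 to 241.1 (median 180.1) and on Soy-10% from 195.4 to 242.7 (median 221.3). Every Cas-5% liver thus lay above every Cas-20% liver, and every Soy-10% liver above every Soy-20% + SAA liver, while the Soy-20% livers spread across both ranges. The means rose in the order Cas-20%, Soy-20% + SAA, Soy-20%, Cas-5% and Soy-10%, with 1.68 times as much in the last as in the first.

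Casein restriction raised *Amd1* from 131.2 ± 15.3 to 195.7 ± 21.6 (mean ± SD, n = 6 each), a log2 change of 0.59 (standard error, SE, 0.09, edgeR adjusted p = 0.0002), or 1.5-fold. Soy restriction raised it from 153.3 ± 19.7 on Soy-20% + SAA to 220.1 ± 18.8 on Soy-10%, a log2 change of 0.52 (SE 0.10, edgeR adjusted p = 0.0037). The latter value was 0.62 (edgeR adjusted p = 0.014) without the 4 libraries that stood apart. With the unsupplemented Soy-20% diet as the control, the log2 fold change was 0.27 (95% interval 0.03 to 0.52, edgeR adjusted p = 0.38). Supplementation itself gave a difference of -0.25 (SE 0.14, edgeR adjusted p = 0.29), and -0.35 (0.79) without the 4 libraries. The casein minus soy effect was 0.06 (SE 0.13, edgeR adjusted p = 0.81) against Soy-20% + SAA, -0.04 (0.93) without the 4 libraries, and 0.31 (0.16, 0.29) against Soy-20%. No difference between the *Amd1* responses to casein and soy restriction was thus detected. Between the restricted diets the Soy-10% minus Cas-5% difference was 0.15 (SE 0.08, edgeR adjusted p = 0.27).

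*Odc1*, which starts the pathway, did not pass the test in any comparison. Its medians lay between 71.18 normalized counts on Cas-5% and 83.88 on Soy-10%, and single livers ranged from 52.13 to 108.3. The log2 fold change was -0.07 (SE 0.14, edgeR adjusted p = 0.78) with casein restriction. With soy restriction it was 0.23 (0.14, 0.26) against Soy-20% + SAA, 0.47 (0.20, 0.26) without the 4 libraries, and 0.12 (0.13, 0.76) against Soy-20%. For casein the approximate 95% interval of the log2 difference was -0.35 to 0.22, so a change of that size could be missed in these livers.

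*Srm* fell with casein restriction, from 205.9 ± 34 to 162.9 ± 18.9, by 0.33 in log2 units (SE 0.11, edgeR adjusted p = 0.042). Cas-20% livers ran from 160.5 to 259.3 (median 207.4) and Cas-5% livers from 127.6 to 176.8 (median 170.9), so the diets overlapped. This call depended on single livers: it was kept in 4 of the 12 fits that left out 1 liver, whose adjusted p ran from 0.014 to 0.092, and was lost in the fit on all 30 livers (0.078) and with the GC slope as a covariate (0.096). On soy the difference was -0.36 (SE 0.16, edgeR adjusted p = 0.13) against Soy-20% + SAA. In that control diet libraries 1 and 2 held 149.1 and 172.2 and libraries 3 to 6 held 221.7 to 279.8, and without the latter the soy difference was 0.07 (edgeR adjusted p = 0.9). Against Soy-20% it was -0.20 (SE 0.12, edgeR adjusted p = 0.57).

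*Sms* was listed at 29.87 to 64.21 normalized counts over all livers, with medians from 41.24 on Cas-20% to 51.34 on Soy-20% + SAA. It passed no test. The log2 difference between the control diets, Soy-20% + SAA minus Cas-20%, was 0.35 (SE 0.14, edgeR adjusted p = 0.15), and 0.36 (0.73) without the 4 libraries. Soy restriction against Soy-20% + SAA gave 0.02 both with all libraries (adjusted p = 0.92) and without the 4 (0.97). Casein restriction gave 0.23 (0.14, 0.25).

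The acetyltransferase gene *Sat1* had the widest spread of the members. Normalized counts ran from 197.4 to 380.4 (median 223.8) on Cas-20%, from 140.8 to 366 (median 202.3) on Cas-5%, from 199 to 274.5 (median 238.5) on Soy-20% and from 243.8 to 292.6 (median 256.8) on Soy-10%. On Soy-20% + SAA the 6 livers held 247.5, 220.8, 121, 36.42, 65.25 and 70.94. Libraries 1 and 2 of that diet were thus within the range of the other diets, and libraries 3 to 6 lay below every other library of the series.

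With all libraries, *Sat1* was 1.05 higher on Soy-10% than on Soy-20% + SAA in log2 units (SE 0.34, edgeR adjusted p = 0.047). Without the 4 libraries the difference was 0.15 (0.10, 0.49), and with each library's GC slope as a covariate it was 0.26 (0.17, 0.46). DESeq2 did not call it (adjusted p = 0.06), and it was kept in 2 of the 12 fits that left out 1 liver. The last 200 bases of *Sat1* hold 29.5% GC, the lowest share among the members, and those of *Srm* 55.5%, the highest. Over 30 libraries the log2 level of *Sat1* had r = -0.90 with the GC slope, that of *Oaz2* r = 0.74 and that of *Srm* r = 0.60. In the 26 libraries outside the 4 these were -0.35, 0.07 and 0.35. All points share library and depth, so these are descriptions. Supplementation gave -0.90 for *Sat1* (SE 0.35, edgeR adjusted p = 0.14), and -0.0029 (adjusted p = 1) without the 4 libraries. The difference between the control diets was -1.02 (0.37, 0.11), and -0.12 (0.94) without them. In *Sat1* the casein minus soy effect was -1.29 (0.42, 0.057), and -0.39 (0.59) without them. Soy restriction against Soy-20% gave 0.15 (0.08, 0.5). Casein restriction gave -0.23 (SE 0.21, edgeR adjusted p = 0.47). Between the restricted diets the Soy-10% minus Cas-5% difference of *Sat1* was 0.26 (SE 0.16, edgeR adjusted p = 0.34). Cas-5% liver 1 held 366, and without it the difference was 0.47 (edgeR adjusted p = 0.0061).

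**Figure D2:**
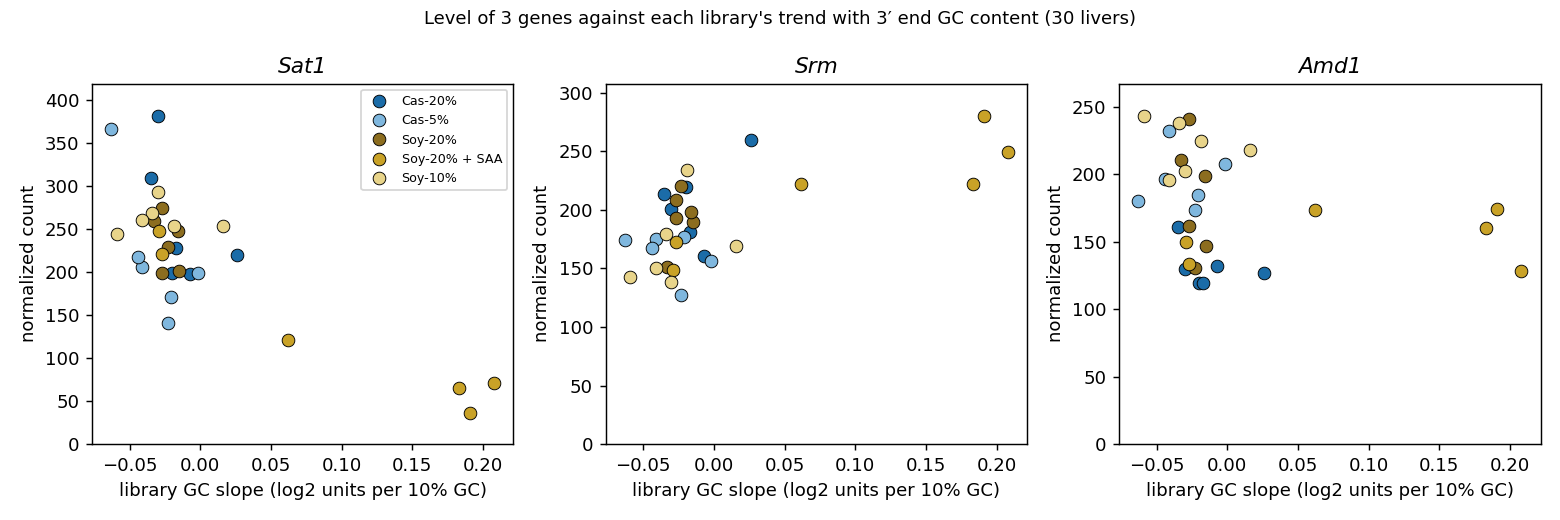
Normalized counts (y axis, from 0) of *Sat1*, *Srm* and *Amd1* in 30 livers against each library's GC slope (x axis, log2 units per 10% of GC in the last 200 bases of transcripts), coloured by diet. The 4 libraries at slopes of 0.062 to 0.208 are Soy-20% + SAA libraries 3 to 6, with *Sat1* at 36.42 to 121, *Srm* at 221.7 to 279.8 and *Amd1* at 128 to 174.4.

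*Smox* was listed at 14.48 to 32.98 normalized counts in single livers. Its medians were 20.05 on Cas-20%, 26.82 on Cas-5%, 21.71 on Soy-20%, 24.2 on Soy-20% + SAA and 19.88 on Soy-10%, and all diets overlapped. The log2 difference was 0.39 with casein restriction (SE 0.20, edgeR adjusted p = 0.18) and -0.29 with soy restriction against Soy-20% + SAA (0.17, 0.25), the latter being -0.42 (0.45) without the 4 libraries. The difference of these effects was 0.67 (0.26, 0.1), and 0.80 (0.21) without the 4 libraries. Among the 24 fits that left out 1 liver it passed the threshold only without Cas-20% liver 5, at 0.83 (edgeR adjusted p = 0.043).

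The antizyme transcript *Oaz1* was highest on Cas-20%. Its normalized counts ran from 732.2 to 851 (median 771.9) there and from 542.8 to 668.8 (median 633.8) on Cas-5%. On Soy-20% + SAA they ran from 590.1 to 690.1 (median 619.5), on Soy-20% from 647.1 to 818.2 (median 720.1) and on Soy-10% from 535.5 to 696.2 (median 649.8). All Cas-20% livers lay above all those of Soy-10%, Cas-5% and Soy-20% + SAA.

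Casein restriction lowered *Oaz1* from 786.1 ± 52.2 to 624.1 ± 42.9, by 0.32 in log2 units (SE 0.07, edgeR adjusted p = 0.0021), and this was called in all 12 fits that left out 1 liver. Soy restriction gave 0.00 (0.07, 0.97) against Soy-20% + SAA, with means of 635.2 on Soy-10% and 632.1 on the control, 0.07 (0.10, 0.79) without the 4 libraries, and -0.19 (0.08, 0.3) against Soy-20%. The casein minus soy effect against Soy-20% + SAA was -0.33 (SE 0.10, edgeR adjusted p = 0.034). It was called in 15 of the 24 fits that left out 1 liver (adjusted p from 0.019 to 0.07) and was -0.39 (edgeR adjusted p = 0.075) without the 4 libraries. Against Soy-20% the difference of effects was -0.14 (0.10, 0.5). Between the control diets *Oaz1* was 0.32 lower on Soy-20% + SAA than on Cas-20% (SE 0.07, edgeR adjusted p = 0.04). That call was kept in 2 of 12 fits that left out 1 liver, and without the 4 libraries the value was -0.38 (edgeR adjusted p = 0.49).

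*Oaz2*, the second antizyme, was listed at 103.3 to 184.6 normalized counts. On Soy-20% + SAA libraries 1 and 2 held 114.7 and 134.7 and libraries 3 to 6 held 130.7, 178.3, 184.6 and 182.7, while no liver of another diet was above 156.8. Neither casein restriction (log2 difference 0.04, SE 0.09, edgeR adjusted p = 0.79) nor soy restriction against Soy-20% + SAA (-0.23, 0.12, 0.21) passed the test, and without the 4 libraries the latter was 0.08 (edgeR adjusted p = 0.8). Between the control diets it was 0.37 (SE 0.13, edgeR adjusted p = 0.096), and 0.06 (0.95) without the 4 libraries.

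*Azin1*, the antizyme inhibitor, ran from 543 to 826 (median 729.2) on Cas-20% and from 574.8 to 642.1 (median 609.9) on Cas-5%, a log2 difference of -0.20 (SE 0.08, edgeR adjusted p = 0.096). The overlap came from Cas-20% liver 2 at 543, and without it the difference was -0.27 (edgeR adjusted p = 0.007). It was also called in the fit on all 30 livers (adjusted p = 0.039) and with the GC slope as a covariate (-0.28, 0.012). On soy the medians were 637.5 on Soy-20% + SAA, 635.7 on Soy-20% and 684.1 on Soy-10%, with log2 differences of 0.11 (0.07, 0.23) and 0.10 (0.07, 0.62). The first was 0.17 (0.4) without the 4 libraries. The casein minus soy effect was -0.32 (SE 0.10, edgeR adjusted p = 0.057) against Soy-20% + SAA, which DESeq2 called (adjusted p = 0.035) and which was -0.37 (0.15) without the 4 libraries, and -0.30 (0.10, 0.095) against Soy-20%.

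**Figure D3:**
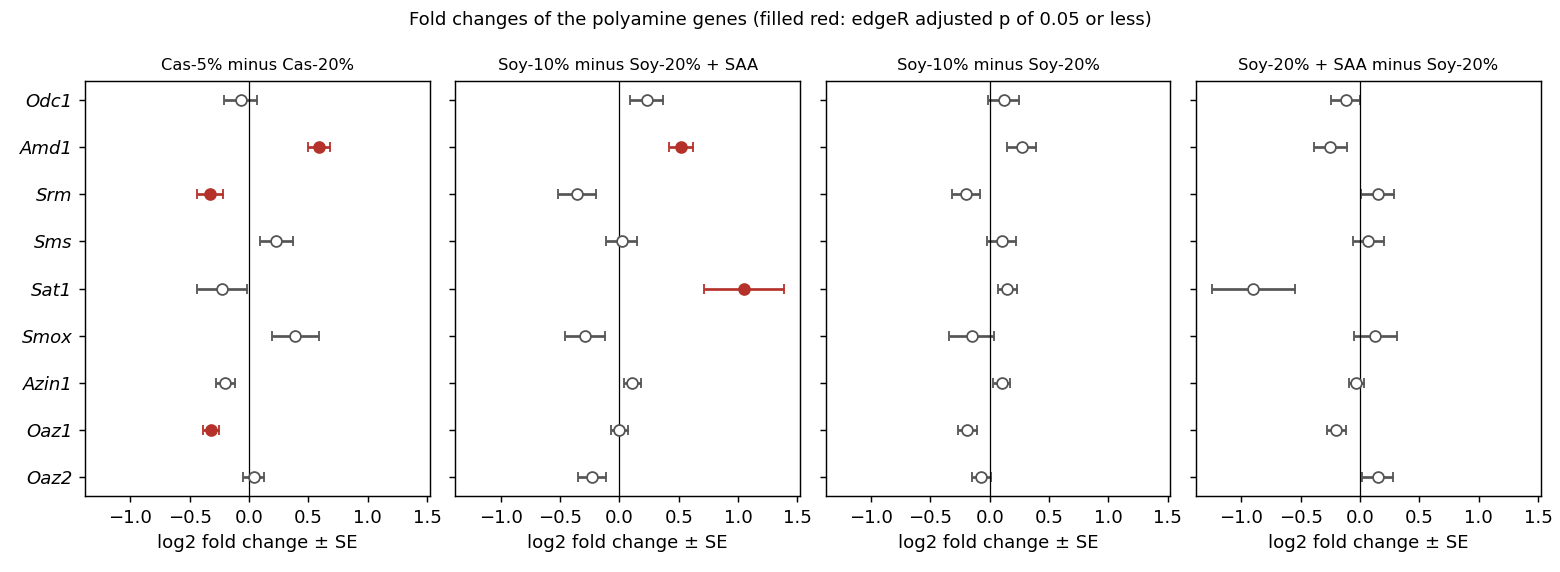
Log2 fold changes (x axis) ± SE of the 9 genes (y axis) in 4 comparisons of 6 against 6 livers, filled red where edgeR's adjusted p was 0.05 or less. *Amd1* is at 0.59 with casein restriction and 0.52 with soy restriction against Soy-20% + SAA, *Oaz1* at -0.32 and 0.00, and no gene is filled in the 2 comparisons with Soy-20%.

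Counted by comparison, casein restriction changed 3 of the 9 members, 1 higher (*Amd1*) and 2 lower (*Srm*, *Oaz1*), against 24.9% of 12076 genes tested, 11.6% being higher and 13.3% lower, and the members' median log2 fold change was -0.07 against 0.02 over all genes. Soy restriction against Soy-20% + SAA called 2 higher (*Amd1*, *Sat1*) and none lower, against 17% of 11983 genes (8.51% higher), with medians of 0.02 and -0.01. Without the 4 libraries 1 member was called, and 317 genes in all. Against Soy-20% no member was called (unadjusted p under 0.05 for *Amd1* and *Oaz1*, none with DESeq2), and 0.866% of all genes were. With supplementation none was called (unadjusted p under 0.05 for *Sat1* and *Oaz1*), and 0.00838% of all genes were. That background is 1 gene, and it was 1587 genes without Soy-20% + SAA liver 1 and 1118 without liver 2. Between the control diets 1 member was called (*Oaz1*), against 2.43% (291 genes). Leaving out 1 liver moved that number between 9, without Soy-20% + SAA liver 6, and 1817, without its liver 1. Between the restricted diets 0 members were called, against 10.7%. A difference between both effects was called for 1 member (*Oaz1*) against Soy-20% + SAA, where 8.69% of genes were called, and for 0 against Soy-20%, where 5.99% were. The diets did not overlap for 2 members in casein restriction (*Amd1*, *Oaz1*), with 12.9% of all genes doing so, for 1 in soy restriction (*Amd1*), with 6.22%, and for 1 between the control diets (*Oaz1*), with 2.69%. With 9 members, shares this close to the background are no result about the pathway as a whole. Both soy comparisons use the same Soy-10% livers. With a minimum absolute log2 change of 1 only *Sat1* in soy restriction against Soy-20% + SAA was called, where 2.57% of genes were.

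The genes that supply ornithine, the substrate of *Odc1*, or use it otherwise fell with casein restriction in all 3 cases tested, where 13.3% of all genes were called lower. Their median log2 fold change was -1.03, against 0.02 over all genes. Ornithine aminotransferase (*Oat*), which turns ornithine towards glutamate and proline, went from 8498 ± 2057 to 1530 ± 173.3 normalized counts, a log2 change of -2.46 (SE 0.14, edgeR adjusted p = 7e-09). Arginase (*Arg1*), which forms ornithine in the urea cycle, fell by 1.03 (0.10, 1.2e-06), and ornithine transcarbamylase (*Otc*), which uses it there, fell by 0.73 (0.07, 1.4e-06). With soy restriction against Soy-20% + SAA, *Oat* fell by 1.12 (SE 0.19, edgeR adjusted p = 0.0019), and by 0.96 (0.028) without the 4 libraries. *Arg1* was at 0.05 (0.13, 0.84), but at -0.28 (0.15) without the 4 libraries and -0.31 (0.057) with the GC slope as a covariate. *Otc* was at -0.10 (0.07, 0.32), and at -0.01 (0.98) without the 4 libraries. Against Soy-20%, *Oat*, *Arg1* and *Otc* gave -0.38, -0.21 and -0.24 (edgeR adjusted p = 0.27, 0.24 and 0.15). The casein minus soy effect passed the test for all 3 genes, against both soy controls. Against Soy-20% + SAA it was -1.35 for *Oat* (edgeR adjusted p = 0.002), -1.08 for *Arg1* (0.00063) and -0.63 for *Otc* (0.00034), and without the 4 libraries it was -1.50, -0.75 and -0.72 (adjusted p = 0.0062, 0.011 and 0.0011). Against Soy-20% it was -2.08, -0.82 and -0.50 (adjusted p = 8.8e-07, 0.00019 and 0.0025). Of all genes, 5.49% and 3.57% were called lower in the difference of effects against Soy-20% + SAA and Soy-20%. Between the restricted diets all 3 were higher on Soy-10% than on Cas-5% (6.14% of all genes called higher), by 0.66 for *Oat*, 0.49 for *Arg1* and 0.58 for *Otc*. *Arg2* was too low to test.

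Among further enzymes and regulators of polyamines, 4 of 7 were tested, *Paox*, *Agmat*, *Sat2* and *Azin2*, and 2 of these fell with casein restriction, against 13.3% of all genes called lower. The list's median log2 fold change was -0.23. Acetylpolyamine oxidase (*Paox*), which oxidises what *Sat1* has acetylated, fell by 1.02 in log2 units (SE 0.17, edgeR adjusted p = 0.00025), from 792.7 ± 198.8 to 388.2 ± 88.2 normalized counts. Agmatinase (*Agmat*), named for releasing putrescine from agmatine, fell by 0.58 (0.07, 1.5e-05). *Sat2* and *Azin2* gave 0.13 (0.14, 0.53) and 0.34 (0.29, 0.43). With soy restriction against Soy-20% + SAA, where 8.47% of all genes were called lower, both again were called, at -0.42 for *Paox* (edgeR adjusted p = 0.043) and -0.31 for *Agmat* (0.012). Without the 4 libraries these were -0.08 (0.74) and -0.31 (0.078). The casein minus soy effect against Soy-20% was -0.93 for *Paox* (edgeR adjusted p = 0.0048) and -0.38 for *Agmat* (0.0076). Against Soy-20% + SAA those differences were -0.61 (0.087) and -0.28 (0.07). The *Paox* value was -0.94 (0.05) without the 4 libraries and -0.89 with the GC slope as a covariate, which was called (0.022). For *Agmat* it was -0.28 (0.23) without the 4 libraries, and DESeq2 called it (0.036).

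With casein restriction the median log2 fold changes of the other lists were -0.04 for S-adenosylmethionine supply, -0.09 for methylthioadenosine salvage, 0.06 for hypusine synthesis, 0.38 for polyamine transport and -0.04 for the MYC network, against 0.02 over all genes, of which 11.6% were called higher and 13.3% lower.

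The genes that make S-adenosylmethionine, the substrate of *Amd1*, moved in different directions. The liver form *Mat1a* fell by 0.33 with casein restriction (SE 0.10, edgeR adjusted p = 0.026) and by 0.46 with soy restriction against Soy-20% + SAA (0.09, 0.0061), while *Mat2a*, the form of other tissues, rose by 0.48 (0.10, 0.0022) and 0.25 (0.07, 0.033). *Mat2b*, its regulatory subunit, was at -0.04 (0.08, 0.75) and 0.62 (0.16, 0.022). Without the 4 libraries the soy values were -0.23 (adjusted p = 0.29), 0.33 (0.082) and 0.12 (0.64), so none of the 3 passed the test there. The casein call of *Mat1a* was kept in 10 of the 12 fits that left out 1 liver. It was lost with the GC slope as a covariate, at -0.26 (0.089). Of 5 genes that salvage methylthioadenosine, the by-product of the aminopropyl transfers, only *Adi1* was called with casein restriction, at -0.45 (0.10, 0.004). None was called with soy restriction, where *Adi1* was at -0.20 (0.08, 0.1) against Soy-20% + SAA, and at -0.00 (0.99) without the 4 libraries.

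Of 3 tested genes of hypusine formation, which spends spermidine to modify the translation factor eIF5A, the factor's own gene *Eif5a* fell by 0.50 with casein restriction (SE 0.12, edgeR adjusted p = 0.0052), and *Dhps* and *Dohh*, the enzymes, gave 0.07 and 0.06 (adjusted p = 0.7 and 0.71). With soy restriction against Soy-20% + SAA *Eif5a* was at 0.10 (0.08, 0.39). The difference between the effects was -0.61 (edgeR adjusted p = 0.015), and -0.48 (0.2) without the 4 libraries. Against Soy-20% it was -0.43 (0.076). Among 5 genes of polyamine transport, *Slc3a2* and *Atp13a2* rose with casein restriction by 0.57 (0.07, 3e-05) and 0.54 (0.12, 0.0041). *Atp13a3* rose with soy restriction against Soy-20% + SAA by 0.70 (0.19, 0.023), and was at 0.13 (0.52) without the 4 libraries. *Slc3a2* also serves as the heavy chain of amino acid transporters. Its casein effect exceeded the soy effect by 0.53 against Soy-20% + SAA (edgeR adjusted p = 0.011), 0.32 (0.23) without the 4 libraries, and by 0.36 against Soy-20% (0.041). The latter call was kept in 8 of 24 fits that left out 1 liver and was lost in the fit on all 30 livers (0.071).

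In the MYC network, whose members bind the E-box, none of 5 genes was called with casein restriction. *Myc*, named after its values were seen, was listed at 2.045 to 12.94 normalized counts on Cas-20% and at 6.791 to 95.96 on Cas-5%, a log2 difference of 1.58 (SE 0.71, edgeR adjusted p = 0.12). Leaving out 1 liver at a time gave 0.22 to 1.78. With soy restriction against Soy-20% + SAA *Max* rose by 0.36 (0.12, 0.048) and *Mnt* fell by 0.61 (0.14, 0.011), and without the 4 libraries they were at 0.06 (0.8) and -0.30 (0.45). Between the control diets *Mycn* was 1.74 lower on Soy-20% + SAA than on Cas-20% (SE 0.38, edgeR adjusted p = 0.04), and -1.97 (0.58) without the 4 libraries, at 1.911 to 34.04 normalized counts. *Arg1* was also called there, at -0.58 (0.14, 0.047), and was at -0.25 (0.69) without them. With soy restriction against Soy-20% none of the genes in these lists was called. The lowest adjusted p there was 0.1 for *Agmat*, at -0.21, which DESeq2 called (adjusted p = 0.015).

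**Figure D4:**
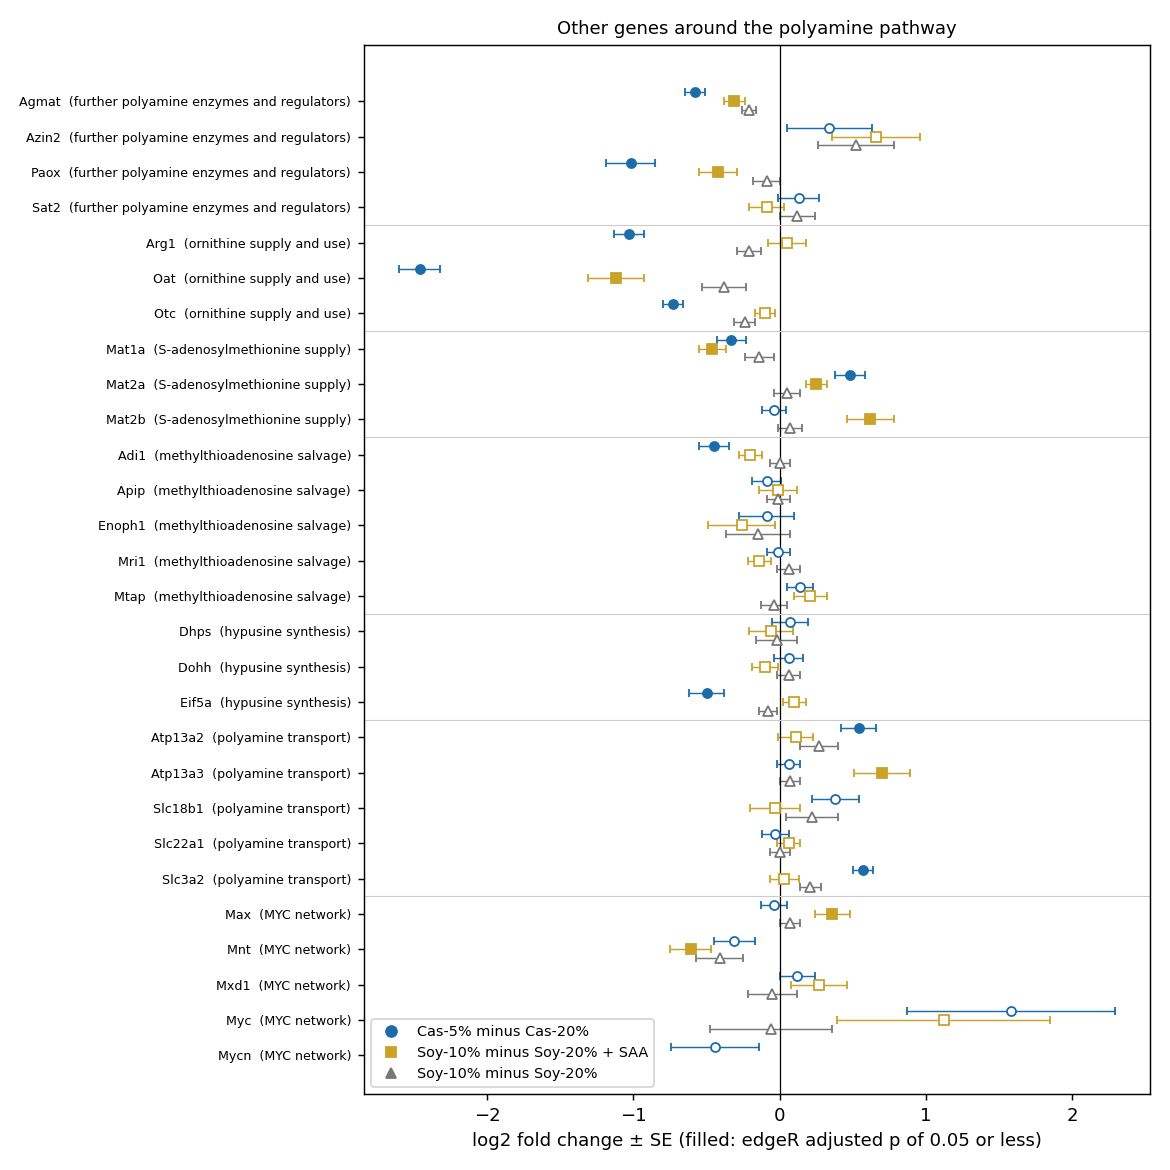
Log2 fold changes (x axis) ± SE of the tested genes around the pathway (y axis, grouped by list) with casein restriction (circles), soy restriction against Soy-20% + SAA (squares) and against Soy-20% (triangles), filled where edgeR's adjusted p was 0.05 or less. *Oat*, *Arg1*, *Otc*, *Paox* and *Agmat* are filled to the left of 0 with casein restriction, *Oat* being farthest at -2.46, and no triangle is filled.

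The genes whose log2 levels followed 3 of the members most closely over the 30 livers were taken from 11992 genes with a mean of 10 or more. For *Amd1* they were *Gm18635*, *Mbl1* and *Tuba1b*, with r = 0.82 each, and 0.83, 0.84 and 0.83 in the 26 livers without the 4 libraries. For *Sat1* they were *Rnf130*, *Prkci* and *Nat2*, with r = 0.96, 0.96 and 0.95, and 0.76, 0.74 and 0.7 without the 4 libraries. For *Odc1* no gene passed r = 0.62, and *Rec114* and *Selenon* stood at 0.6. All points share library and depth, and these are descriptions.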

How the data were processed

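Liver RNA of 30 mice was made into libraries with the Lexogen QuantSeq 3′ kit and sequenced on a NextSeq 500. The authors mapped and counted reads with the Lexogen QuantSeq pipeline on the Bluebee platform, and the deposited counts are whole reads per gene. The aligner, annotation release and treatment of reads with several matches are not given in the sources used here. The submitters' processing notes name GRCm38 (mm10), R 4.0.3 and DESeq2 1.30. The second deposited table holds the normalized signal, that is, the authors' counts divided by DESeq2 size factors, and every normalized count in the text is from it. Both tables list 14173 genes. The lowest total of a listed gene over 30 libraries was 90 reads, so the lack of a row does not show that a gene had no reads.

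Counts were tested with edgeR 4.0.16 in R 4.3.3 (quasi-likelihood F test, filterByExpr, TMM), with only the compared diets in each fit and Benjamini-Hochberg adjustment over all genes tested. Genes were called at an adjusted p of 0.05 or less. Standard errors were derived from the test, as the absolute log2 fold change divided by the square root of the F statistic. Intervals are 1.96 standard errors on either side (nominally 95%). That multiplier is of the normal distribution, so with 6 livers per diet they are somewhat too narrow. In parentheses that hold 2 values after a first full one, they are the standard error and the adjusted p, and a single value is the adjusted p. The 6 livers per diet are separate mice. Alternatives were DESeq2 1.42.0, RLE factors, no filter, a block for replicate number, a fit on all 30 livers, a covariate for the GC slope, leaving out 4 libraries, leaving out each liver, and a minimum absolute log2 fold change of 1, which is the limit in the study's own rule. The GC slope is the slope of a library's log2 deviation from the gene mean on the GC content of the last 200 bases of the transcript, over 11927 genes. The test was run on simulated counts for some of the comparisons, with the same dispersion for every gene and no GC trend. That run therefore does not cover the libraries that stood apart. Sequences came from GENCODE M21 transcripts and RefSeq promoters, read with Python 3.11.15 and biopython 1.88. Numbers of replicates did not pair livers across diets.

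All 9 members were tested and counted in every comparison, though not every value of every member is printed. From each further list, up to 3 called genes with the smallest adjusted p were named, or any gene of a list with 4 or fewer tested. The members and lists were chosen with earlier results of these data known.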

Additional observations from a re-analysis of the deposited data

Results flagged for a closer look

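In 4 of 45 groups of 6 livers, 1 gene in 1 diet, a single liver lay far from the others, its gap to the nearest, as a share of the group's range, being above Dixon's 95% critical value. Chance alone flags about 1 in 20 groups. *Amd1* in Cas-20% liver 6 was at 160.6 normalized counts, with the other 5 at 119.1 to 131.9 (gap over range 0.692). *Sms* in Soy-10% liver 2 was at 63.77, with the others at 45.69 to 52.41 (0.628). *Sat1* in Cas-5% liver 1 was at 366, with the others at 140.8 to 217.3 (0.66). *Oaz1* in Cas-5% liver 4 was at 542.8, with the others at 621.9 to 668.8 (0.628). The *Amd1* and *Oaz1* calls of casein restriction were made in all 12 fits that left out 1 liver.

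A test of the difference between the casein and soy restriction effects called *Oaz1*. The casein minus soy effect against Soy-20% + SAA was -0.33 in log2 units (edgeR adjusted p = 0.034), and it was not called against Soy-20% (-0.14, adjusted p = 0.5). Protein source and depth of restriction both differ in it. The call was lost in 9 of 24 fits that left out 1 liver (adjusted p up to 0.07), among them the fit without Soy-10% liver 4, which held acinar transcripts (0.052), and without the 4 Soy-20% + SAA libraries (0.075). The log2 difference of *Oaz1* was -0.32 between the control diets (Soy-20% + SAA minus Cas-20%, edgeR adjusted p = 0.04). It was 0.01 between the restricted diets (Soy-10% minus Cas-5%, edgeR adjusted p = 0.96).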

How the results depend on the processing

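The calls of *Amd1* and *Oaz1* in casein restriction and of *Amd1* in soy restriction against Soy-20% + SAA were kept under every alternative run for them, other than a minimum absolute log2 fold change of 1. Over all alternatives, 1742 values of members kept direction and side of the threshold, 44 changed sign, 56 lost and 30 gained a call. The cause was not tested.

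The number of members called was 0 in place of 3 in casein restriction at an absolute log2 fold change of 1. In the fit on all livers and with the GC slope it stayed at 3, but *Srm* was lost (adjusted p = 0.078 and 0.096) and *Azin1* gained (0.039 and 0.012). In soy restriction against Soy-20% + SAA it was 1 in place of 2 with DESeq2, with the GC slope, without the 4 Soy-20% + SAA libraries and at an absolute log2 fold change of 1. With supplementation it was 1 in place of 0 in the fit on all 30 livers. Between the control diets it was 3 in place of 1 in that fit and 0 with the GC slope, without the 4 libraries and at an absolute log2 fold change of 1. For the difference of effects against Soy-20% + SAA it was 2 in place of 1 with DESeq2, 3 in the fit on all livers and 0 without the 4 libraries, and against Soy-20% it was 1 in place of 0 with the GC slope. Over all diets it was 2 in place of 4 with the GC slope and without the 4 libraries.

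With replicate number as a block, members called were 3 in casein restriction, 2 in soy restriction against Soy-20% + SAA, 0 between the control diets and 2 for the difference of effects against Soy-20% + SAA, and 4 over all diets. The block took *Oaz1* between the control diets to an adjusted p of 0.059 and *Sat1* in the difference of effects to -1.47 (0.03), and moved the genes called between the control diets from 291 to 141. The block changed no other call of a member. Livers of the same number shared only that number: correlations of their deviations ran from -0.19 to 0.19, and at most 2 of 6 pairs passed 0.1.

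Signs turned with the GC slope and without the 4 libraries, in that order. *Srm* became 0.03 and 0.07 in soy restriction against Soy-20% + SAA, -0.21 and -0.27 with supplementation, -0.27 and -0.36 between the control diets, and -0.28 and -0.40 in the difference of effects. *Oaz2* became 0.12 and 0.08, and -0.18 and -0.15, in the first pair of these, and -0.02 and -0.05 in the difference of effects. *Sms* became -0.02 in soy restriction with the GC slope, and the difference of effects of *Amd1* became -0.04 without the 4 libraries.

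Leaving out 1 liver, the number of members called ran from 2 to 3 in casein restriction, 1 to 3 in soy restriction against Soy-20% + SAA, 0 to 1 with supplementation, 0 to 3 between the control diets, 0 to 1 between the restricted diets, 0 to 2 and 0 to 1 for the differences of effects, and 2 to 5 over all diets. Signs turned for *Oaz2* in casein restriction (-0.01 to 0.07), for *Sms* (-0.05 to 0.1) and *Oaz1* (-0.02 to 0.05) in soy restriction, for *Sms* (-0.0012 to 0.14) and *Azin1* (-0.05 to 0.0024) with supplementation, for *Odc1* (-0.14 to 0.02) and *Srm* (-0.01 to 0.15) between the control diets, for *Srm* (-0.08 to 0.09) and *Oaz1* (-0.03 to 0.05) between the restricted diets, and for *Srm* in the difference of effects (-0.06 to 0.15).

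Genes called in all moved from 2035 in soy restriction against Soy-20% + SAA to 3077 in the fit on all livers, 381 with the GC slope and 317 without the 4 libraries. Against Soy-20% they moved from 103 to 217 with DESeq2 and 62 in the fit on all livers. With supplementation they moved from 1 to 873 with DESeq2, 1793 in the fit on all livers, 2 with RLE factors or no filter, and 0 with the GC slope or without the 4 libraries. Between the control diets they moved from 291 to 1135, 2331, 5 and 3 with DESeq2, all livers, the GC slope and without the 4 libraries. For the difference of effects they moved from 1089 to 551 and 296 with the last 2 of these against Soy-20% + SAA, and from 746 to 493 in the fit on all livers against Soy-20%. Over all diets they moved from 5450 to 3544 and 3433 with the GC slope and without the 4 libraries.

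Leaving out 1 liver, genes called in all ran from 1219 to 3119 in soy restriction against Soy-20% + SAA, 50 to 146 against Soy-20%, 0 to 1587 with supplementation, 9 to 1817 between the control diets and 719 to 1941 for the difference of effects against Soy-20% + SAA. The highest of these were without Soy-20% + SAA liver 1, other than against Soy-20% (without Soy-20% liver 3).

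The sum of *Amd1* and *Amd2* was not run, since the tables hold no row for *Amd2*. Without the 4 libraries 2 livers remain on Soy-20% + SAA, so a lost call there also reflects fewer livers. Protein level, enzyme activity and polyamines were not measured here.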
